A study of Nothobranchius furzeri with 68 samples.

Results

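The genes followed here encode the enzymes that salvage AMP and interconvert it with its neighbours: aprt, adk, hprt1, mtap, adss2, ampd1, ampd3, nt5e, ada and xdh. They were chosen by name for the step each enzyme carries out, and are 10 of the 25065 genes in the liver table and of the 25099 genes in the muscle table. All 10 were found in both tables, with adss2 listed as LOC107375820 and named from RefSeq. The tissues came from the African turquoise killifish (Nothobranchius furzeri), an annual fish with a short life, and RNA was sequenced from 68 libraries of 41 fish. Fish were heterozygous for a perturbation of APRT (Het) or wild type (WT), were 15 weeks (old) or 6.5 weeks (young) of age, and were fasted for 24 h or fed ad libitum. Livers came from fasted females, fasted males and fed males, in 12 groups, and muscle from the 27 fasted fish of both sexes, in 8 groups. There were 12 groups of 3 fish and 8 groups, all Het, of 4 fish. The labels used here give neither the aprt allele nor the number of founder lines, and the counts do not separate transcripts of the mutant and the intact allele.

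AMP can be built step by step through IMP, or salvaged from bases and nucleosides already made. APRT joins adenine to phosphoribosyl pyrophosphate to give AMP, and most cellular adenine is thought to come from MTAP, which cleaves the methylthioadenosine left over from polyamine synthesis. Adenosine kinase (ADK) makes AMP from adenosine, and adenylosuccinate synthase (ADSS2) starts the route from IMP to AMP, while AMP deaminases (AMPD1, AMPD3) run that interconversion backwards and NT5E strips the phosphate from extracellular AMP. In mammals the liver is the main site of purine synthesis and urate formation, and working muscle cycles AMP through IMP.

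The libraries held 19949104 to 31600126 counts in liver and 24144462 to 31331150 in muscle. Levels below are CPM, counts scaled to a common library size with TMM factors within a tissue. Differences are log2 fold changes with standard errors, and calls are genes below 0.05 after adjustment over all genes in edgeR's quasi-likelihood test. Of the 10 genes, 9 passed the filter on low counts in liver (ampd1 did not) and 10 passed in muscle. Summed hepatocyte markers ran from 42275 to 178950 CPM in the livers, with the group ranges given beside the results they move with, and summed skeletal muscle markers from 123215 to 322325 CPM in the muscles. Leukocyte markers in both tissues, skeletal muscle markers in liver and hepatocyte markers in muscle were screened for libraries that stood apart. There were 6, each at more than 10 times the median of its tissue. The livers of fish 18 (old WT fasted male), 26 (old Het fasted male), 4 (old WT fed male) and 13 (old Het fed male) had summed leukocyte markers of 655, 515, 444 and 390 CPM, against a median of 34.9 CPM. The liver of fish 5 (old WT fed male) had skeletal muscle markers at 253 CPM (median 5.74), and the muscle of fish 25 (old Het fasted male) had hepatocyte markers at 2356 CPM (median 18.5). Summed exocrine pancreas markers were outside that screen and ran from 46.8 to 3091 CPM in the livers (median 795). They were 251 to 1793 CPM in Het and 1587 to 1709 CPM in WT livers of young fed males. In old fed males they were 71.6 to 1846 CPM in Het and 96.5 to 491 CPM in WT livers. Their part in the results below was not tested. In whole tissue, fewer cells of a type and less RNA per cell cannot be told apart.

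To check the genotype labels, aprt was examined first in Het and WT fish. It was lower on average in Het than in WT fish in all 6 liver comparisons and all 4 muscle comparisons, with Het means at 43.2% to 70.7% of the WT mean in liver and at 44.5% to 75.5% in muscle. Averaged over the 6 liver strata, aprt was lower in Het livers by a log2 fold change of -0.81 ± 0.0889 (SE, 95% interval -0.99 to -0.63, edgeR adjusted p 1.65e-06). It was called in this average whichever 1 of the 41 fish was left out. The single Het libraries ran from 36.3% to 103% of the mean of their WT stratum (median 55.5%, 23 libraries) in liver and from 32.8% to 104% (median 47.6%, 15 libraries) in muscle. The highest in both tissues was the same animal, the old fasted female fish 21 labelled Het, whose aprt was at the WT level in its liver (103%) and its muscle (104%). WT fish also reached into the Het range, as did the liver of fish 47 (13.3 CPM, young fed male). So did the muscle of WT fish 29 (5.03 CPM, young female), and the level in a single fish does not decide its genotype. The muscle of the young female fish 37, labelled Het, was at 102%, and its liver was the lowest of its group. Without fish 21 the liver average of aprt was -0.85 (edgeR adjusted p 2.19e-07). Fish 21 was picked for its high aprt, so the larger differences without it, here and below, follow from that choice.

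Among old fed males, aprt measured 12.2, 13.0, 11.1 and 12.8 CPM in Het livers, against 19.4, 23.9 and 25.7 CPM in WT livers. The groups did not overlap, and the difference was called (log2 fold change -0.91, edgeR adjusted p 0.00904, where 7.33% of all genes were called). Old fasted males had 8.54, 5.99 and 6.83 CPM in Het livers and 14.4, 17.4 and 17.6 CPM in WT livers. Again no Het liver reached a WT one, and aprt was called (-1.21, edgeR adjusted p 0.0161, among 0.758% of all genes). Both calls rest on few fish: without fish 5 the first had an adjusted p of 0.082, and the second was lost without fish 26 or without fish 27 (up to 0.0856). With the high-marker libraries left out the adjusted p-values were 0.333 in fed and 0.101 in fasted old males. An edgeR fit of the compared groups alone also lost the call in old fasted males (adjusted p 0.181), and called 0 of 15750 genes. Summed hepatocyte markers also separated the genotypes here, upwards in fed and downwards in fasted Het males. They were 135359 to 157935 CPM in Het and 108869 to 129104 CPM in WT livers of old fed males, and 87981 to 102468 CPM in Het and 123190 to 149544 CPM in WT livers of old fasted males. In young fed males they were 147070 to 178950 CPM in Het and 112504 to 128603 CPM in WT livers, and the part of these markers in the genotype results was not tested.

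In young fasted females the aprt levels were 6.35, 6.97, 6.84 and 6.02 CPM in Het livers, against 13.4, 14.7 and 9.07 CPM in WT livers. In young fasted males they were 8.25, 14.7, 10.5 and 11.2 CPM in Het livers and 23.4, 18.7 and 16.5 CPM in WT livers. Neither pair of groups overlapped, yet edgeR called aprt in neither (log2 fold changes -0.92 and -0.81, adjusted p 0.237 and 0.402). In both comparisons it called 0% of all genes, while DESeq2 called aprt in the young females (adjusted p 0.0246, among 18 of 6268 genes). Young fed males had 14.1, 12.4, 17.3 and 14.0 CPM in Het livers and 24.4, 23.7 and 13.3 CPM in WT livers, so that 1 WT liver lay within the Het range. The difference there was -0.50 (adjusted p 0.186, where 5.8% of all genes were called). Old fasted females overlapped too, with 11.9, 5.53, 8.41 and 6.62 CPM in Het livers and 10.5, 12.7 and 11.7 CPM in WT livers (-0.51, adjusted p 0.223, with 2.03% of all genes called). Without fish 21 the difference was -0.76 (adjusted p 0.0677).

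The same gene in muscle gave 4.17, 4.23 and 3.29 CPM in old Het males, against 7.20, 8.50 and 10.6 CPM in old WT males. Young males had 4.99, 8.35, 4.73 and 4.85 CPM in Het muscle and 15.4, 12.2 and 9.52 CPM in WT muscle. The groups were separate in both, with fish 39 the highest of the young Het males. Old females had 10.1, 3.99, 3.19 and 4.51 CPM in Het muscle, against 8.50, 8.87 and 11.8 CPM in WT muscle, and here fish 21, labelled Het, lay within the WT range. Young females overlapped most, with 4.91, 6.30, 6.08 and 8.81 CPM in Het muscle and 7.94, 5.03 and 12.9 CPM in WT muscle (-0.40, and -0.68 to 0.00 with 1 fish left out). No single muscle comparison called aprt or any other gene (0% of all genes in each, with aprt at an adjusted p of 0.254 in old males and 0.837 in young males). Averaged over the 4 strata, aprt was lower in Het muscle by -0.88 ± 0.168 (95% interval -1.22 to -0.53, edgeR adjusted p 0.0378), where 0.0794% of all genes were called. That call held in only 8 of the 27 fits that left out 1 fish, with adjusted p-values of up to 0.108 (without fish 27). Without fish 21 the difference was -1.01 (adjusted p 0.00161). Summed skeletal muscle markers separated the genotypes in old males, at 199799 to 233280 CPM in Het and 123215 to 188591 CPM in WT muscle. They did so in young females too (271756 to 285533 CPM in Het, 218783 to 248474 CPM in WT). In old females and young males they overlapped. The part of these markers in the muscle genotype results was not tested.

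**Figure D1:**
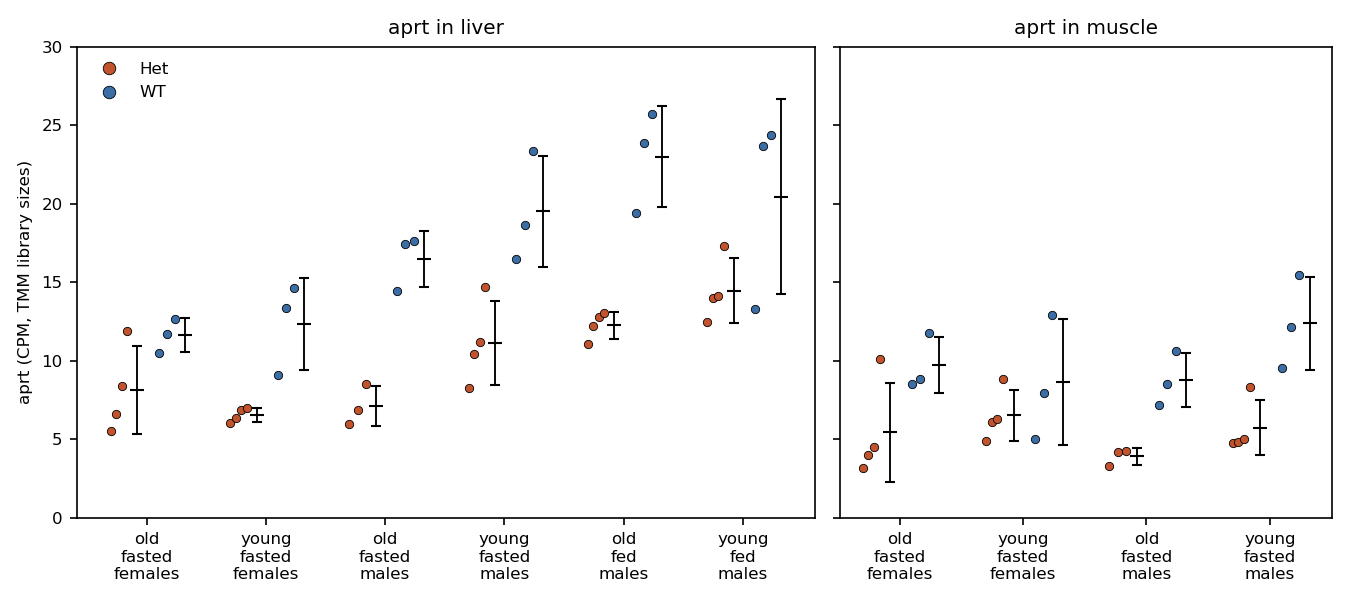
aprt in CPM, one point per fish, with Het left of WT in each stratum of age, feeding and sex, for 6 liver strata and 4 muscle strata; bars give the group mean and SD (n = 3 or 4). The Het mean is below the WT mean in every stratum, and Het and WT fish do not overlap in 4 of the 6 liver strata and 2 of the 4 muscle strata.

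Set in order of the liver group means of aprt, the highest was 23.0 ± 3.23 CPM in old WT fed males, followed by 20.5 ± 6.21 in young WT fed males, 19.5 ± 3.52 in young WT fasted males and 16.5 ± 1.77 in old WT fasted males. The lowest were 8.12 ± 2.80 CPM in old Het fasted females, 7.12 ± 1.30 in old Het fasted males and 6.54 ± 0.441 in young Het fasted females (SD, n = 3 or 4). All 4 groups of WT males stood above all 6 Het groups, whose highest mean was 14.5 ± 2.05 CPM in young fed males. Neighbouring means in this order differed by no more than the larger of their SDs, except that old Het fasted females lay further below young Het fasted males (11.1 ± 2.69 CPM). In muscle the order ran from 12.4 ± 2.96 CPM in young WT males to 3.90 ± 0.524 CPM in old Het males, with all 4 WT groups above all 4 Het groups.

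Whether the remaining members differed along with the lower aprt transcript was asked in the same comparisons. None was called. Over 12 genotype comparisons (6 strata and their average in liver, 4 and their average in muscle), edgeR called 0 of 101 tests of these genes, and DESeq2 called 0. There were 8 tests (7.92%) with an unadjusted p under 0.05, and the smallest adjusted p was 0.175. Across all genes, edgeR called 1.76% in the liver average and 0.0794% in the muscle average. The share of all genes with an unadjusted p under 0.05 was 18.1% in young fed, 23% in old fed, 4.93% in young fasted and 16.3% in old fasted male livers, 7.89% in young and 16.5% in old female livers, and 14.3% in the liver average. In muscle it was 5.77% in young and 8.99% in old males, 6.7% in young and 7.66% in old females, and 11.1% in the average. The 7.92% of these members' tests pools 12 comparisons that share libraries. It cannot be ranked against shares of single comparisons, and no pooled share of all genes is given here.

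Of the other enzymes that make AMP, adk, whose product phosphorylates adenosine, differed by 0.03 between Het and WT liver in the average (95% interval -0.17 to 0.24) and by -0.16 in muscle (-0.43 to 0.11). Its Het mean was below the WT mean in 4 of 4 muscle strata, at 75.3% to 98.4% of it, and above it in 4 of 6 liver strata. The salvage enzyme for hypoxanthine and guanine, hprt1, differed by -0.11 (-0.26 to 0.04) in liver and by -0.03 (-0.16 to 0.10) in muscle. It was the least variable member in both tissues, with an SD within groups of 0.22 in liver and 0.14 in muscle on the log2 scale. For adss2, the intervals were wider in liver (-0.29, -0.80 to 0.23) than in muscle (-0.13, -0.29 to 0.03), and its SD within liver groups of 0.79 was the largest of the 9 genes tested there. Muscle of young males had 10.1 to 12.3 CPM of adss2 in Het and 13.3 to 17.3 CPM in WT fish. This difference was not called (unadjusted p 0.00912, edgeR adjusted p 0.86). In old males Het muscle lay above WT muscle instead, at 10.5 to 12.9 against 9.15 to 10.2 CPM, again without a call. Paralogs of adss2 had more reads: its median counts were 33 in liver against 285 for adssl, and 347 in muscle against 15182 for adssl1. Their levels by genotype are not given here.

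In the liver average, the smallest p-values belonged to the supplier of adenine and the enzyme that breaks AMP down outside the cell. There mtap was at -0.20 (95% interval -0.39 to -0.01, unadjusted p 0.0376, edgeR adjusted p 0.303), with a lower Het mean in 5 of 6 strata. The 5'-nucleotidase gene nt5e was at 0.21 (0.05 to 0.37, unadjusted p 0.0117, adjusted p 0.175), with a higher Het mean in 5 of 6 strata, at 97.2% to 133% of WT. In young fasted females, nt5e measured 3.54, 4.37, 5.24 and 5.24 CPM in Het livers and 3.09, 3.30 and 3.99 CPM in WT livers, with overlap at fish 34. For mtap, Het and WT livers did not overlap in old fed males (7.26 to 9.40 CPM in Het, 10.6 to 12.2 CPM in WT). Nor did they in young fed males (6.81 to 8.77 CPM in Het, 9.03 to 10.7 CPM in WT), and mtap was called in neither. In muscle these genes were at -0.10 (-0.30 to 0.11) for mtap and 0.11 (-0.07 to 0.30) for nt5e. Muscle of old females had 3.62 to 4.10 CPM of nt5e in Het and 3.30 to 3.42 CPM in WT fish, without a call. The share of all genes whose Het and WT fish separate in the same strata is not given here. Groups this small can separate by chance, so non-overlap of a gene without a call is a description only, here and elsewhere.

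Among the genes that consume purines, ada, which turns adenosine into inosine, was at -0.05 (-0.48 to 0.38) in liver and -0.11 (-0.33 to 0.11) in muscle. The AMP deaminase genes were at -0.22 (-0.61 to 0.18) for ampd3 in liver, at 0.11 (-0.19 to 0.42) for ampd3 in muscle and at 0.05 (-0.23 to 0.34) for ampd1 in muscle. Muscle of young males had 1.39 to 2.03 CPM of ampd3 in Het and 0.935 to 1.31 CPM in WT fish, without a call. In liver its median of 14 counts was below the 31 of its paralog ampd3b, whose levels by genotype are not given here. xdh, the gene of the enzyme that makes urate, was at 0.08 (-0.19 to 0.35) in liver. The strata differed around that average, with Het means at 82.9% to 172% of WT. In old fasted males xdh measured 296, 324 and 343 CPM in Het livers and 145, 177 and 239 CPM in WT livers, without overlap (0.78, 95% interval 0.08 to 1.48, unadjusted p 0.0296, adjusted p 0.251). In the same livers adss2 was at -1.43 (unadjusted p 0.0315, adjusted p 0.255), with estimates from -2.29 to 0.05 when 1 fish was left out. The highest WT liver for adss2 was that of fish 18, which also had the highest leukocyte markers. In muscle the difference of xdh was 1.47 (0.29 to 2.65, edgeR adjusted p 0.347), and it was largest in old males at 3.47 (adjusted p 0.214). Those old males had 6.97, 0.192 and 0.392 CPM of xdh in Het muscle and 0.146, 0.258 and 0.267 CPM in WT muscle. The 6.97 CPM belonged to fish 25, the muscle with 2356 CPM of hepatocyte markers, and without it the difference was 0.38 in old males (adjusted p 0.968) and 0.70 in the average. Leaving out fish 26 instead, 1 of the 2 low Het fish, raised it to 4.02 in old males, with an adjusted p of 0.0434.

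**Figure D2:**
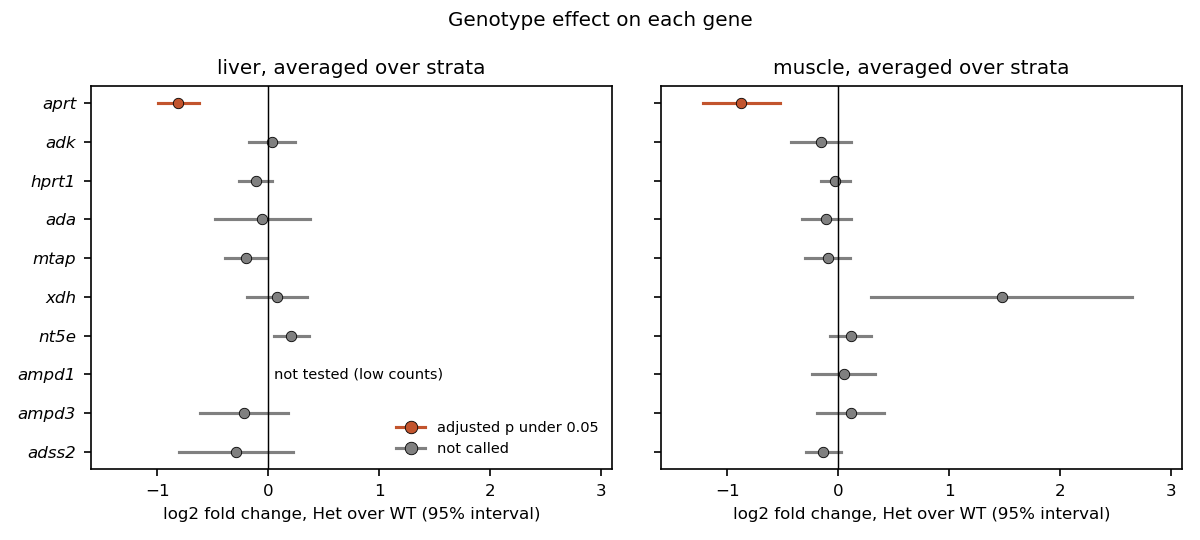
Log2 fold change of Het over WT for each gene, averaged over 6 liver strata and 4 muscle strata; points are edgeR estimates and bars their 95% intervals. aprt lies at -0.81 in liver and -0.88 in muscle, with intervals that reach no higher than -0.53, while the other genes were not called in either tissue and xdh in muscle has the widest interval.

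The genotype effect itself was then compared between feeding states, ages, sexes and tissues, in 10 differences of effects. For aprt these ran from -0.41 to 0.70, edgeR and DESeq2 called 0 of 10, and 1 had an unadjusted p under 0.05. That was female minus male among old fasted livers (0.70, edgeR adjusted p 0.186, where 4.67% of all genes were called and 22.2% had an unadjusted p under 0.05). Liver minus muscle in the same fasted fish was 0.04 (95% interval -0.39 to 0.47), in a comparison where 0% of all genes were called. For the other members, edgeR called 0 of 83 differences and DESeq2 0, with 4 at an unadjusted p under 0.05 and a smallest adjusted p of 0.161. Among those 4 was xdh for fasted minus fed old males, at 0.999 (unadjusted p 0.0401, adjusted p 0.239, where 1.25% of all genes were called and 18.9% had an unadjusted p under 0.05). In the other differences of effects, edgeR called 1.53% of all genes for fasted minus fed young males. For old minus young fish it called 0.276% in fed males, 0.00575% in fasted males and 0.954% in fasted females, and 0% in the muscle differences and in young female minus male livers. The matching shares at an unadjusted p under 0.05 were 11%, 13.8%, 12.8% and 15.2% in liver, 7.64% for the sexes in young livers, 2.97% and 6.64% for age and sex in muscle, and 8.13% for liver minus muscle.

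The wider network was read from 71 other genes of purine and methylthioadenosine metabolism. In the liver average over strata, 0 of the 59 that were tested were called higher and 3 were called lower in Het fish, which is 5.08% against 1.76% of all genes. These were amd1 (-0.86 ± 0.152, edgeR adjusted p 0.00287), gda (-0.45 ± 0.087, 0.00581) and mat2a (-0.65 ± 0.146, 0.015). MAT2A makes S-adenosylmethionine and AMD1 decarboxylates it for polyamine synthesis, the route whose by-product MTAP splits to give adenine, and GDA deaminates guanine. In young fed males, mat2a averaged 3.95 ± 1.57 CPM in Het livers (SD, n = 4) and 19.4 ± 4.41 CPM in WT livers (SD, n = 3), and amd1 12.1 ± 4.34 CPM in Het livers and 46.7 ± 2.26 CPM in WT livers. Both were called there (log2 fold changes -2.29 and -1.95, adjusted p 0.00022 and 0.0012), whichever 1 of the 7 fish was left out and under all 5 other alternatives run. In old fed males amd1 averaged 12.8 ± 3.37 CPM in Het livers and 39.9 ± 22.9 CPM in WT livers (-1.64, adjusted p 0.00717), and this call was lost without fish 5 (adjusted p 0.168) and with the high-marker libraries left out (0.517). With the high-marker libraries left out, amd1 was still called in the average (adjusted p 0.0369), and gda (0.0721) and mat2a (0.177) were not. The share called in young fed males was 2 of 59 (3.39%), below the 5.8% of all genes. In old fed males 2 were called higher and 4 lower (10.2%, against 7.33% of all genes), with slc28a1, a nucleoside transporter, higher (0.81, adjusted p 0.00863) and mri1, of methionine salvage, lower (-1.14, 0.0133). In old fasted males 1 was called higher and 2 lower (5.08%, against 0.758% of all genes). There impdh1b, of the route to GMP, was higher (1.82, 0.0405) and gda and atic were lower. In old fasted females pnp5a was lower (-1.77, 0.0109), the 1 call among 59 (1.69%, against 2.03% of all genes). The calls of slc28a1 and mri1 were lost without fish 5 and with the high-marker libraries left out. Those of impdh1b and atic were lost whichever of 6 fish was left out. That of gda in old fasted males held in 2 of 6 such fits, and that of pnp5a was lost in 2 of 7. In muscle edgeR called 0 of the 64 network genes tested in the genotype average. For the difference of genotype effects, female minus male in old fasted livers, 5 network genes were called higher and 2 lower (11.9%, against 4.67% of all genes). For fasted minus fed males, 1 of 59 was called at each age (1.69%, against 1.53% of all genes in young and 1.25% in old males). In the other differences of effects 0 were called.

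Fasting was compared with feeding in male livers, the only fed samples. On average over the 4 strata of age and genotype, 5 of the 9 members were called: xdh, mtap, hprt1 and ampd3 rose and aprt fell in fasted livers. This is to be read against 47.6% of all genes called for the same contrast. Within single strata the calls were fewer: 0 of 9 in young WT males (10.7% of all genes), 1 of 9 in young Het males (13.5%), 0 of 9 in old WT males (28.9%) and 2 of 9 in old Het males (31.8%). At an unadjusted p under 0.05 there were 2 members in young WT males (24.1% of all genes) and 1 in old WT males (38.9%). DESeq2 called 1 in young WT males (2463 of 16359 genes in all) and 0 in old WT males (5447 of 17363).

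xdh rose by 0.77 ± 0.16 (edgeR adjusted p 0.000203) in the average. In old Het males it measured 296, 324 and 343 CPM in fasted livers and 123, 114, 108 and 136 CPM in fed livers. The lowest fasted liver was well above the highest fed one, and xdh was called in that stratum (1.42, adjusted p 0.00103). Old WT males had 145, 177 and 239 CPM in fasted livers and 153, 137 and 130 CPM in fed livers, which overlapped (0.42, adjusted p 0.391). Among young Het males the values were 348, 159, 177 and 99.2 CPM in fasted livers and 128, 137, 103 and 95.4 CPM in fed livers, and among young WT males 101, 152 and 279 CPM in fasted livers and 111, 140 and 129 CPM in fed livers. The young fasted fish spread over a range several times that of the fed fish, and xdh was not called in them.

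mtap rose by 0.50 ± 0.11 (edgeR adjusted p 0.000506). Young Het males had 15.0, 15.5, 15.9 and 11.6 CPM in fasted livers, against 7.26, 8.77, 8.52 and 6.81 CPM in fed livers. Young WT males had 15.1, 18.2 and 14.5 CPM in fasted livers, against 9.94, 10.7 and 9.03 CPM in fed livers. Fasted and fed fish were separate in both genotypes, and mtap was called in the young Het males (0.89, adjusted p 0.00516). In the young WT males it missed the threshold with edgeR (0.69, adjusted p 0.061) and passed it with DESeq2 (0.0346) and in a fit of those groups alone (0.0247). In old males mtap was not called. Old Het males had 9.66, 9.78 and 11.6 CPM in fasted livers and 8.19, 7.26, 8.82 and 9.40 CPM in fed livers, narrowly separate, and old WT males had 15.2, 9.80 and 11.6 CPM in fasted livers and 12.2, 10.9 and 10.6 CPM in fed livers, with overlap. Whether the fasting effect on mtap differs between ages was not tested.

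aprt moved the other way, at -0.43 ± 0.109 on average (edgeR adjusted p 0.00156). From the values above, fasted livers lay below all fed livers in old males of both genotypes, and the difference was called in old Het males (-0.79, adjusted p 0.00654) and not in old WT males (-0.48, adjusted p 0.116). In young males it was -0.38 in Het and -0.07 in WT fish (adjusted p 0.222 and 0.92), with overlap in both. By the hepatocyte marker ranges given above, fasted livers were below all fed livers in old Het males and overlapped them in old WT males. Fasted livers of young Het males had 74583 to 137200 CPM of these markers, below all fed livers of that stratum. Those of young WT males had 95757 to 152402 CPM and overlapped the fed ones. The part of these markers in the fasting results was not tested. hprt1 rose by 0.32 ± 0.09 (adjusted p 0.00322) without a call in any single stratum. Young WT males had 126, 116 and 103 CPM of hprt1 in fasted livers and 88.1, 74.4 and 93.9 CPM in fed livers, and old Het males 83.1, 68.8 and 91.7 CPM in fasted livers and 62.6, 66.7, 45.3 and 71.5 CPM in fed livers. The young WT groups were separate and the old Het groups overlapped at one fed liver. ampd3, at 0.160 to 1.55 CPM in all male livers of this contrast, was called narrowly (0.57, adjusted p 0.0437) and lost its call in 17 of the 27 fits without 1 fish. The members not called were adk (-0.11), nt5e (-0.19, adjusted p 0.0992), adss2 (-0.09) and ada (-0.01).

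**Figure D3:**
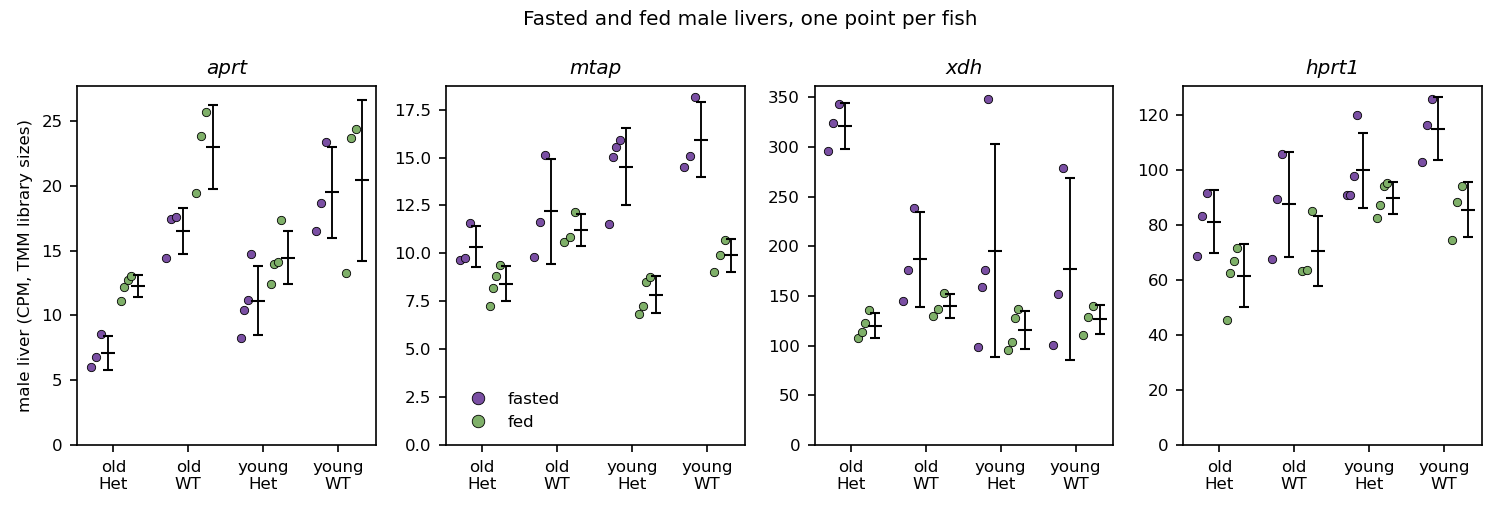
CPM of aprt, mtap, xdh and hprt1 in male livers, fasted left of fed, for old Het, old WT, young Het and young WT fish; points are fish and bars the mean and SD (n = 3 or 4). Fasted and fed fish are separate for xdh in old Het males and for mtap in young males of both genotypes and, narrowly, old Het males, and aprt is lower in fasted than in fed old males.

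Of the other network genes, 17 were called higher and 15 lower in the fasting average among 59 tested (54.2%, against 47.6% of all genes). Those with the smallest adjusted p were a rise of pnp5a, a purine nucleoside phosphorylase (2.03, edgeR adjusted p 3.87e-10), a fall of nt5c2, a cytosolic nucleotidase (-0.81, 1.23e-07), and a rise of mat2aa, a second methionine adenosyltransferase gene (0.60, 3.45e-07). In young Het males mat2a and amd1 also rose with fasting (2.05 and 1.63, adjusted p 0.000265 and 0.00247), and in fasted young males amd1 averaged 37.4 ± 11.3 CPM in Het livers and 61.6 ± 21.4 CPM in WT livers.

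Old and young fish were compared next. In liver edgeR called 0 of the 9 members in any of the 5 age comparisons, in WT fed males (9.43% of all genes), Het fed males (0%), WT fasted males (0.5%), Het fasted males (8.31%) and fasted females (5.95%). At an unadjusted p under 0.05 there were 1, 1, 2, 3 and 2 members in that order, against 26.3%, 9.38%, 18.9%, 25.7% and 22% of all genes. DESeq2 called 1 in WT fasted males (adss2, adjusted p 0.0169), among 988 of 17363 genes. It called 1 in Het fasted males (aprt, 0.0346), among 2177 of 17030 genes. For aprt in Het fasted males edgeR gave -0.65 (adjusted p 0.0601), with old and young fish overlapping at 8.54 and 8.25 CPM. For adss2 in WT fasted males it gave 2.28 (adjusted p 0.0795), with 11.9, 2.55 and 1.21 CPM in old livers and 0.923, 1.24 and 1.07 CPM in young livers. The 11.9 CPM came from fish 18, the liver with the highest leukocyte markers. hprt1 was lower in old than in young fish in all 5 comparisons by estimates of -0.55 to -0.14, none of them called.

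Age was associated with 3 members in muscle of fasted males, where 10.1% of all genes were called, and with 0 in fasted females (0.311% of all genes; 1 member at an unadjusted p under 0.05, as were 11.1% of all genes, and 0 by DESeq2). ampd3, the AMP deaminase known from erythrocytes in humans, rose in old males by 1.15 ± 0.21 (edgeR adjusted p 0.00281), and kept the call whichever 1 of the 13 fish was left out. It measured 2.53, 3.00 and 3.41 CPM in old Het males and 2.48, 2.01 and 5.50 CPM in old WT males. The young values were 2.03, 1.90, 1.65 and 1.39 CPM in Het males and 1.31, 1.19 and 0.935 CPM in WT males. Within each genotype the ages did not overlap. Its paralog ampd3b rose too, by 0.91 (adjusted p 0.00343), and reads shared between the copies are uncertain. In females ampd3 was at 0.44 (adjusted p 0.43), and the difference between the sexes in this age effect was not tested.

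Leukocyte markers moved with age in the same muscles: their sum was 25.6 to 148 CPM in old WT males, 23.3 to 223 CPM in old Het males, and 19.7 to 35.6 CPM in the young males. Of the old males, fish 20, 25 and 27 were within the young range of these markers, and the others were above it. Fish 25 was also the muscle with high hepatocyte markers. Summed erythroid markers were 28.0 to 80.3 CPM in old and 53.0 to 84.1 CPM in young males. Connective tissue markers were lower in old males, at 819 to 3180 CPM, against 2831 to 6652 CPM in young males, and skeletal muscle markers were 123215 to 233280 CPM in old and 213938 to 322325 CPM in young males. The part of these markers in the rise of ampd3 was not tested. The other calls in old males were a fall of nt5e (-0.41, adjusted p 0.0458) and a rise of xdh (2.49, adjusted p 0.047), which were lost in 10 and in 9 of the 13 fits without 1 fish. nt5e measured 4.10, 3.31 and 4.16 CPM in old Het and 2.30, 2.99 and 4.17 CPM in old WT males, against 3.74, 4.25, 4.18 and 6.07 CPM in young Het and 5.09, 4.49 and 4.51 CPM in young WT males. Old and young overlapped in Het fish and were separate in WT fish. Without fish 25, the muscle with hepatocyte markers, xdh was at 0.95 (adjusted p 0.363).

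Female and male fasted livers differed in 2 members at the young age, where 26.4% of all genes were called, and in 3 at the old age, where 32.6% were. aprt was lower in young females by -0.71 ± 0.154 (edgeR adjusted p 0.000789), averaging 9.04 ± 3.55 CPM in females and 14.7 ± 5.27 CPM in males (SD, n = 7 each). Within each genotype every young female lay below every young male, as the values given above show. Summed hepatocyte markers were lower in females of the same livers as well, with medians of 50247 CPM in Het and 47117 CPM in WT young females, against 127275 CPM in Het and 123829 CPM in WT young males. At the old age the medians were 44474 CPM in Het and 56129 CPM in WT females, against 101158 CPM in Het and 144341 CPM in WT males, and the part of these markers in the sex results was not tested. At the old age aprt was at -0.15 (adjusted p 0.491), and whether the sex difference changes with age was not tested. adk, also an AMP-forming enzyme, was lower in young females (-0.55, adjusted p 0.0166), a call lost without fish 28 or fish 30. It measured 138, 68.1, 88.1 and 125 CPM in Het females and 108, 175 and 91.5 CPM in WT females, against 205, 184, 200 and 152 CPM in Het males and 152, 146 and 157 CPM in WT males. Only the WT female fish 29 reached into the range of the males.

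At the young age edgeR did not call mtap for sex. DESeq2 did (adjusted p 0.0437, with 4944 of 17363 genes called), as did an edgeR fit of the compared groups alone (0.0212). Young females had 16.9 to 19.5 CPM in Het and 18.7 to 27.1 CPM in WT livers. Young males had 11.6 to 15.9 CPM in Het and 14.5 to 18.2 CPM in WT livers, below the females of their genotype. At the old age mtap was higher in females by 0.50 (edgeR adjusted p 0.0215), with 25.9, 11.8, 21.8 and 8.64 CPM in Het females and 16.7, 11.2 and 16.1 CPM in WT females. The old males had 9.66, 9.78 and 11.6 CPM in Het and 15.2, 9.80 and 11.6 CPM in WT livers. The sexes overlapped, and leaving out 1 fish removed the call in 5 of 13 fits. The direction of mtap rests on the TMM factors, which ran from 0.543 to 1.51 over the livers. Raw mtap counts were 107 to 660 in old Het females and 205 to 313 in old WT females. In old males they were 303 to 378 in Het and 257 to 647 in WT fish. Scaled by library totals alone, mtap averaged lower in females than in males at both ages, which was not tested. adss2 and ampd3 were lower in old females (-1.58 and -1.03, adjusted p 0.00787 and 0.023). For adss2 the females had 1.49, 1.42, 1.28 and 1.21 CPM in Het and 1.49, 0.436 and 0.586 CPM in WT livers, against 0.861, 3.70 and 1.29 CPM in Het and 11.9, 2.55 and 1.21 CPM in WT males. The 3.70 and 11.9 CPM belonged to fish 26 and 18, both with high leukocyte markers, and leaving out either fish removed both calls (for ampd3, leaving out fish 16 did so too). With the high-marker libraries left out, the sex difference of adss2 was -0.41 (adjusted p 0.449) and that of ampd3 -0.54 (adjusted p 0.245). In a fit of the compared groups alone, mtap, adss2 and ampd3 were not called at the old age.

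Across all 41 livers, adss2 was higher in the 4 leukocyte-high livers (3.69 to 11.9 CPM) than in every one of the other 37 (0.313 to 2.98 CPM). All 4 were also above the median of the others for ada, at 12.2 to 20.4 CPM against a median of 5.79 and a maximum of 13.7 CPM. For ampd3 the 4 had 0.693 to 1.55 CPM, and 2 were above the maximum of the others, 1.07 CPM. aprt showed no such separation, with 5.99 to 19.4 CPM in these livers and 5.53 to 25.7 CPM in the others. All 4 leukocyte-high livers came from old males, and the share of all genes that set them apart in the same way is not given here. The part of leukocytes, age and sex in these values was not tested.

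**Figure D4:**
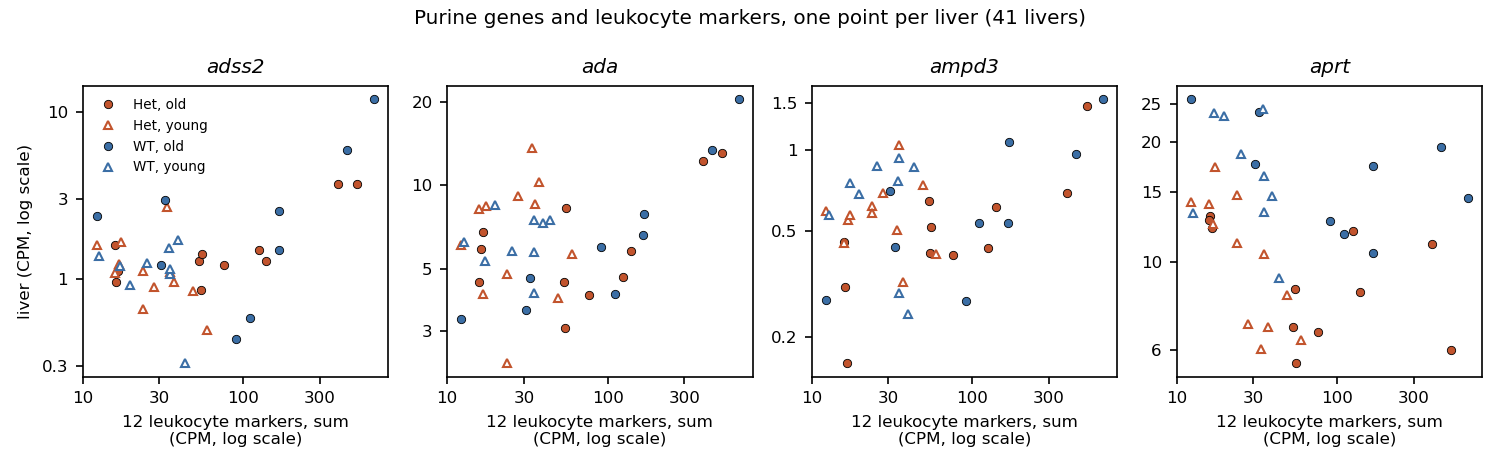
CPM of adss2, ada, ampd3 and aprt in each of 41 livers against the summed CPM of 12 leukocyte markers, both on log axes. The 4 livers at 390 to 655 CPM of leukocyte markers have the highest adss2 of all livers, while their aprt lies within the range of the other 37.

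In muscle, edgeR called 0 members for sex at the young age (0.11% of all genes; 2 at an unadjusted p under 0.05, and 0 by DESeq2) and 0 at the old age (1.78%; 4 at an unadjusted p under 0.05). The shares of all genes at that unadjusted p were 8.68% at the young and 23% at the old age. At the old age DESeq2 called adss2 (adjusted p 0.0144), adk (0.0349) and ampd3 (0.0436), and 928 of 16297 genes in all. The edgeR estimates there were 0.41 for adss2 (adjusted p 0.0532), 0.61 for adk (0.0771) and -0.68 for ampd3 (0.0668). For adss2 the old females had 10.5, 13.3, 10.3 and 16.9 CPM in Het and 15.7, 15.1 and 15.9 CPM in WT muscle, against 11.7, 12.9 and 10.5 CPM in Het and 9.15, 9.33 and 10.2 CPM in WT males. Sexes were separate in the WT fish and overlapped in the Het fish.

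Liver and muscle of the 27 fasted fish were set against each other in a joint fit, whose CPM are scaled over both tissues and so differ from those above. Library kit and sequencer differed between the tissues, so these cannot be told apart from tissue. There were 9 of 10 members called, where 86% of all genes were called. Higher in liver were xdh (9.12, edgeR adjusted p 3.36e-28), adk (3.12, 2.26e-28), hprt1 (2.14, 6.89e-32) and mtap (1.88, 4.61e-24), each in 27 of 27 fish. For adk the liver range was 57.2 to 175 CPM (median 126), against 6.46 to 18.9 CPM (median 14.0) in muscle, and for hprt1 it was 51.0 to 107 CPM (median 76.7) against 13.3 to 21.8 CPM (median 17.5). For mtap the liver range was 6.86 to 21.1 CPM (median 12.9), against 2.40 to 4.73 CPM (median 3.54) in muscle. None of these ranges overlapped between tissues.

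Lower in liver were ampd1 (-16.42, edgeR adjusted p 1.22e-35), adss2 (-3.77, 9.87e-24), ada (-2.87, 6.09e-22), ampd3 (-2.07, 5.72e-18) and nt5e (-0.52, 1.2e-09). ampd1, the AMP deaminase of skeletal muscle, had 0 to 0.476 CPM in the livers (median 0.0462) and 2685 to 7196 CPM in the muscles (median 4112), so that its fitted fold depends on the prior count. Across all 41 livers ampd1 was at 0 in 13, and its highest value, 4.16 CPM, was in fish 5, the liver with skeletal muscle markers. ampd1 passed the filter in 20 of the 41 liver fits without 1 fish. It was called lower in old Het than in old WT fed males without fish 4 or fish 6 (-4.29 and -4.32, adjusted p 0.025 and 0.0188), and for age in WT fed males without fish 6 (0.0471). For fasting in old WT males it was called without fish 4, 6, 18, 19 or 20 (adjusted p 0.00281 to 0.0362) and with no filter on low counts (0.00988). All these contrasts set a group that holds fish 5 against another. ada measured 1.95 to 16.0 CPM in liver and 28.8 to 60.6 CPM in muscle, and adss2 0.247 to 9.31 CPM in liver and 10.4 to 21.3 CPM in muscle, both without overlap. Of the adenylosuccinate synthase paralogs, adssl1 had a median of 0 counts in liver and 15182 in muscle, and adssl 285 in liver and 157 in muscle.

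aprt alone was not called between the tissues. It averaged 9.24 ± 3.99 CPM in liver and 8.79 ± 3.89 CPM in muscle (SD, n = 27 each). The log2 fold change was 0.06 (95% interval -0.15 to 0.28, edgeR adjusted p 0.590), and aprt was higher in liver in 15 of 27 fish. nt5e was close too, at 2.39 to 4.27 CPM in liver and 2.61 to 7.16 CPM in muscle, with the liver higher in 1 of 27 fish.

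**Figure D5:**
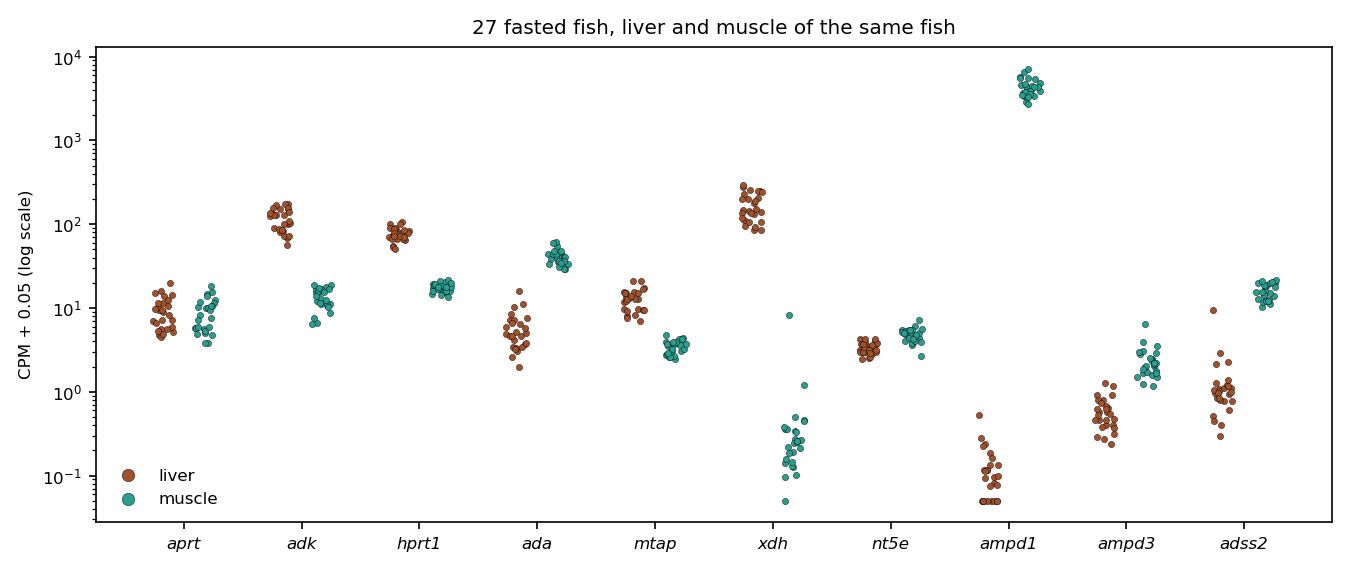
CPM plus 0.05 on a log axis for each gene in 27 fasted fish, liver left of muscle; points are libraries, scaled in a joint fit of both tissues. xdh, adk, hprt1 and mtap are higher in every liver than in any muscle, ampd1, ada and adss2 are lower in every liver, and aprt covers a similar range in both tissues.

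The genes whose group means followed those of aprt most closely were ranked by Pearson's r, as a description over group means that share libraries with aprt. Over the 12 liver groups and 9313 genes these were atxn1 (0.87), mtss1la (0.86), tmem62 (0.82), grin2b (0.82) and mapre3a (0.80). Over the 8 muscle groups and 8761 genes they were angptl7 (0.97), atp2a2a (0.94), mmrn2 (0.93), smtnl (0.93) and phlda1 (0.92). Only genes above a floor of mean expression were ranked, which left out ampd1, ampd3 and adss2 in liver and xdh and ampd3 in muscle. No other ranked member was among the genes listed in either tissue.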

How the data were processed

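The authors deposited raw counts per gene, 1 table for liver and 1 for muscle. Per the submitters' processing notes, FastQC 0.11.8, Trim Galore 0.6.4, cutadapt 3.4 and STAR 2.7.6a were used. The counting tool, strand setting, genome build and annotation are not given in the sources used here, so reads shared with near-identical copies or antisense genes are uncertain. Per the labels' protocols, liver libraries were made with KAPA mRNA HyperPrep and muscle libraries with KAPA Stranded mRNA-Seq, on different sequencers. The muscle table holds 34 mitochondrial genes that the liver table lacks (3.02% to 9.51% of muscle counts), and the joint fit used the shared genes. A RefSeq table (assembly NfurGRZ-RIMD1) gave symbols to 5241 of 14280 LOC identifiers and was used for names only.

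Tests ran in edgeR 4.0.16 under R 4.3.3 (glmQLFit, glmQLFTest) with TMM size factors, after filterByExpr (minimum count 10, minimum total 15). It kept 17406 liver genes, 16380 muscle genes and 18485 genes for the joint fit. Each fit had 1 mean per group over all its libraries, and p-values were adjusted over all its genes by Benjamini-Hochberg. Each library is 1 tissue of 1 fish, per the labels. CPM used no prior count and log2 CPM a prior count of 2. The steps were tested on simulated counts.

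The design text states that both tissues came from the same fish. As a description, deviations from group means over 8752 genes correlated between liver and muscle of a fish with a median r of 0.225 (-0.00114 to 0.518). In 23 of 27 fish this r was above the highest r with the muscle of another fish. Deviations within a small group cancel out, which lowers r between its fish, so this count cannot decide the pairing. All members were named, with at most 3 called genes of the other pathway lists per comparison of genotype or fasting. Called genes of those lists were not named for the remaining comparisons. Members and lists were chosen with earlier results of these data known. Alternatives were DESeq2 1.42.0, RLE size factors, no filter, only the groups compared, each fish left out, a replicate block by fish and, added after seeing the data, the 6 high-marker libraries left out.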

Additional observations from a re-analysis of the deposited data

Results flagged for a closer look

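Among 80 sets of 4 fish, 1 value stood apart from the other 3 in 7 sets, and chance gives about 1 in 20, or 4. In muscle of young Het fasted males, fish 39 had the highest aprt, 8.35 CPM against 4.73 to 4.99 CPM in the others, and the highest mtap, 2.95 CPM against 2.10 to 2.24 CPM. In livers of young Het fasted females, fish 34 had 303 CPM of xdh, and the others had 109 to 132 CPM. In muscle of old Het fasted females, fish 23 had 0.981 CPM of xdh against 0.0806 to 0.178 CPM, with summed hepatocyte markers of 124 CPM (tissue median 18.5), whose part was not tested. ampd1 stood apart in the muscle of the young Het fasted female fish 36, at 3959 CPM against 2822 to 2998 CPM. In liver, where it is close to absent, ampd1 stood apart in the young Het fasted male fish 40 (0.564 CPM, others 0 to 0.0775 CPM) and in the old Het fasted female fish 21 (0.0784 CPM, others 0).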

How the results depend on the processing

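No call of a member changed direction under any alternative. The genotype comparisons held 4 calls, all of aprt, and 2 with the high-marker libraries left out, an alternative chosen after seeing the data. Age calls numbered 3, against 5 with DESeq2 and 1 without a filter on low counts. Sex calls numbered 5, against 9 with DESeq2 and 3 in fits of the compared groups alone. The cause of these shifts was not tested. With each fish left out, the calls ran from 2 to 5 for genotype, 0 to 0 for differences of genotype effects, 7 to 10 for fasting (8 with all fish), 1 to 6 for age, 2 to 7 for sex and 9 to 9 for tissue. Genotype had 2 calls without fish 27 and sex 2 without fish 26. Age had 1 without fish 18, 19, 31, 32, 33, 39 or 40, 5 without fish 38 and 6 without fish 20. With the fish as a replicate block, 9 members were called for tissue and 0 for the difference of genotype effects between liver and muscle, as without it, so the pairing changed no call. Of 29 single calls, 29 held with DESeq2 and 29 with RLE size factors, 26 without the filter and 24 without the high-marker libraries. In fits of the compared groups alone 14 of 19 held. The call of xdh for age in male muscle had no test in those fits, so it is not among the 19 and was not upheld either. Groups of 3 or 4 fish limit what single strata can show, and ampd3 in liver rests on a median of 14 counts and xdh in muscle on 5.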
